A study of Mus musculus with 8 samples.

Results

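Neutrophils sorted from mouse brain tumours into a CD71- and a CD71+ fraction were compared across all genes of a deposited table of read counts. The comparison rested on 4 of the 8 libraries of the series, chosen by their labels: 2 labelled CD71- and 2 labelled CD71+, both from brain tumour tissue whose cell source is given as the SB28 cell line, a mouse glioma line. The labels name no treatment, genotype, age or sex of the mice, so the fractions are described only by tissue, tumour line and CD71 sort. The other 4 libraries held CD71- and CD71+ neutrophils generated in vitro from naive bone marrow. They entered the fit for the estimate of the spread. The labels number the samples but do not say that they came from separate animals, so the p-values measure no more than the spread between the libraries, and that spread may be technical. Apart from CD71, the sources used here do not give the gates of the sort.

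CD71 is the transferrin receptor, encoded by Tfrc, which carries iron-loaded transferrin into the cell. Its level is set largely after transcription, by iron-responsive proteins that bind its mRNA and by traffic of the receptor between the membrane and endosomes. Neutrophils are short-lived granulocytes that live mainly on glycolysis, and in hypoxic tumours they take up much glucose and release lactate, which can also be added to histones as lactylation. Macrophages, microglia and neutrophils share many myeloid genes, so a marker of one is rarely silent in the others.

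Total counts of the tumour libraries were 11898224 and 11175405 in CD71- and 11713166 and 11147646 in CD71+, so depth hardly differed between the fractions. A gene with 0 counts in a tumour library could still have held up to 3 counts, which is 0.283 to 0.419 CPM, the counts scaled to a common library size. The CPM are computed on library sizes scaled by edgeR's TMM factors, which were 0.602 and 0.646 in CD71- and 0.888 and 0.954 in CD71+. TMM scaling thus raised the CD71- values relative to the CD71+ values, by more than the total counts would have done. The 10 genes with the most counts took 11.9% and 11.8% of the counts in CD71- and 9.97% and 9.56% in CD71+.

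Of 15975 genes tested, 4182 rose in the CD71+ fraction (26.2%) and 2768 fell (17.3%), 43.5% together, at a p under 0.05 from edgeR's quasi-likelihood test after Benjamini-Hochberg adjustment over the genes tested. The median log2 fold change, CD71+ over CD71-, was 0.13. The 2 libraries of a fraction did not overlap with those of the other for 11577 genes (72.5%). Among the 6950 genes called this held for 6946, so a lack of overlap adds little to a call. Rises of at least 2-fold were made by 3538 genes and falls of at least 2-fold by 1086. Without replicate 2 of the CD71- fraction, 4495 genes were called, 2278 of them higher, and without replicate 1 of that fraction 4807 were called, 2500 of them higher.

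Directions depended on how the libraries were scaled. With DESeq2's size factors 3454 genes were higher (21.6%) and 3854 lower (24.1%), 45.7% in all. With total counts and no composition factor 6796 were higher (42.5%) and 486 lower (3.04%), 45.6% in all. With libraries scaled so that the mature neutrophil genes stayed level, 9080 were higher (56.8%) and 42 lower (0.263%), 57.1% in all. These shares of all genes are the background for the counts of list members below. Against TMM, these scalings moved the typical gene by -0.219, 0.56 and 0.996 on the log2 scale. For genes with more than a few counts in each fraction, the TMM values below can be read roughly on another scale by adding that shift. It does not hold for genes with almost no counts in a fraction. Folr2, with 0 counts in both CD71- libraries, had 7.82 under TMM and 7.84, 7.55 and 7.29 under these scalings. Rises under all 4 scalings were found for 3454 genes (21.6%) and falls under all 4 for 41 (0.257%), whereas 510 genes were called higher under one scaling and lower under another.

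**Figure D1:**
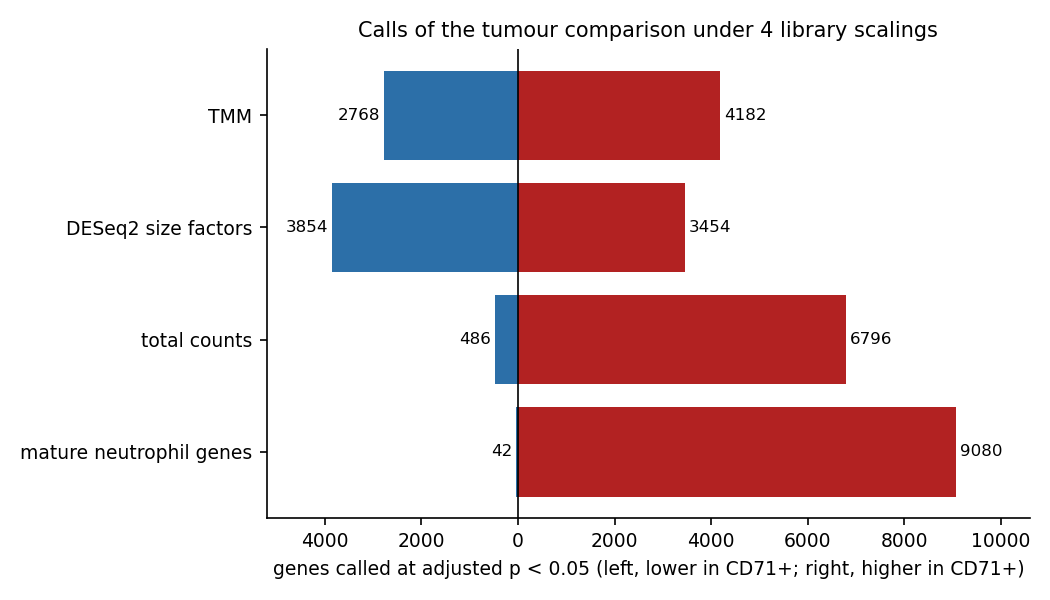
Number of genes called at an adjusted p under 0.05 in the tumour comparison, lower in CD71+ to the left and higher to the right, under 4 library scalings. The split ran from 3454 higher and 3854 lower with DESeq2 size factors to 9080 higher and 42 lower with the mature neutrophil genes held level.

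Under TMM, genes with many reads mostly fell and calls among genes with few reads were mostly rises. Of 221 genes with a mean of at least 1000 CPM over the 4 tumour libraries, 192 fell (86.9%) and 5 rose. Their median log2 fold change was -0.89. Between 100 and 1000 CPM, 1164 of 1892 genes fell (61.5%) and 100 rose. Lists below with most members above 100 CPM are to be read beside these shares as well as that of all genes. Between 20 and 100 CPM the calls were nearly even, with 872 rises and 805 falls among 3403 genes and a median of -0.04. Between 1 and 5 CPM, 1500 of 4471 genes rose and 185 fell, with a median of 0.73. On total counts the median of the class above 1000 CPM was -0.33 and that of the class from 1 to 5 CPM was 1.29. With the mature neutrophil genes held level these medians were 0.10 and 1.72. The class above 1000 CPM was the lowest under these 3 scalings, on either side of 0. CPM are not corrected for gene length, so a class holds long genes at lower levels per length.

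**Figure D2:**
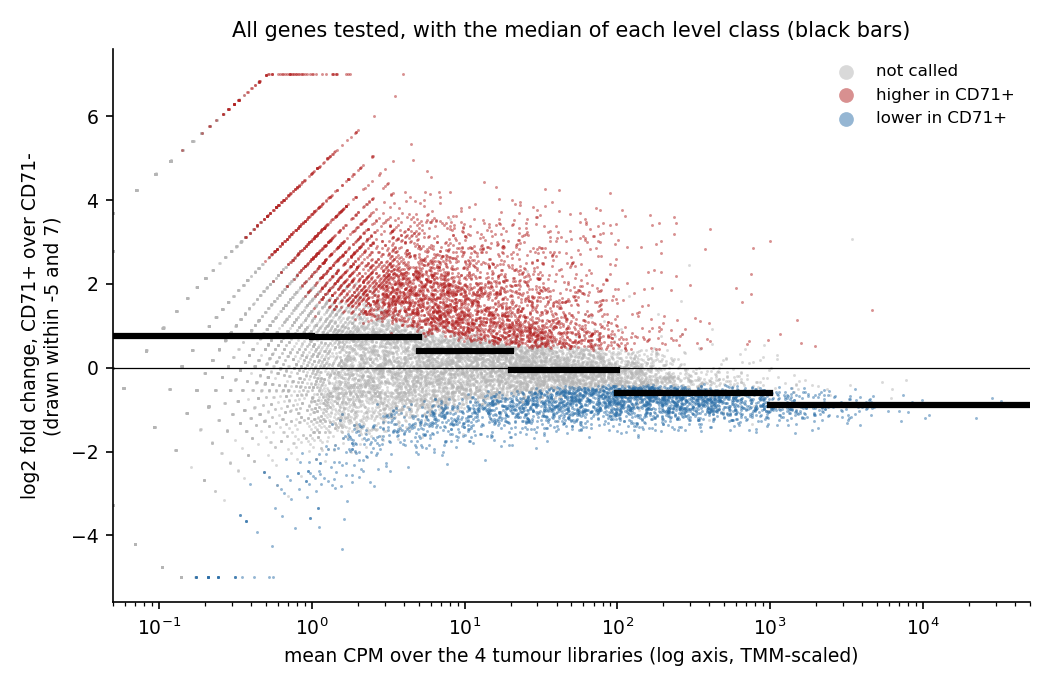
Log2 fold change (CD71+ over CD71-, TMM scaling) of all 15975 genes tested against their mean CPM over the 4 tumour libraries, on a log axis, with genes called higher in red and lower in blue, and black bars at the median of each level class. Points beyond -5 or 7 are drawn at those values, and the stripes at the left are genes with a few counts. The bars step down from 0.75 below 1 CPM to -0.89 above 1000 CPM.

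The genes of mature neutrophils fell together. Of 25 genes of this list, 21 fell and none rose under TMM, and all 25 fitted values were negative, from -1.58 to -0.49 with a median of -1.03. That is 84% lower, against 17.3% of all genes tested. Most members lay above 100 CPM, where falls were common in any gene. From 100 to 1000 CPM 61.5% of all genes fell, and above 1000 CPM 86.9%. Their summed level was 40160 and 43290 CPM in CD71- and 21680 and 20730 CPM in CD71+. Before any scaling they took 2.41% and 2.79% of the counts in CD71- and 1.92% and 1.97% in CD71+, a smaller fall. Csf3r, the receptor for granulocyte colony-stimulating factor, had 5788 and 5339.9 CPM in the CD71- libraries and 2302 and 1999 CPM in the CD71+ libraries. Both CD71- libraries lay above both CD71+ libraries (log2 fold change -1.37 ± 0.19 SE, adjusted p = 0.000114). Cxcr2, the receptor that draws neutrophils to CXC chemokines, had 1271 and 1668 CPM in CD71- and 714 and 738 in CD71+. Padi4, the enzyme that citrullinates histones in extracellular traps, went from 119.7 and 76.6 CPM in CD71- to 38.3 and 34.1 in CD71+ (log2 fold change -1.44 ± 0.22 SE, adjusted p = 0.000287). Wfdc21 fell by 1.58 on the log2 scale. Mxd1, Trem1 and Il1r2 fell by 1.03, 1.11 and 1.04 on the log2 scale. The alarmin genes S100a8 and S100a9 were nearer to level, with log2 fold changes of -0.60 and -0.49, and S100a9 did not pass (adjusted p = 0.0598). Mmp8, a collagenase, had 165 and 954 CPM in CD71- and 118 and 352 in CD71+, so the fractions overlapped. Ly6g, the surface protein by which mouse neutrophils are usually gated, was low throughout, with 9.37 and 14.2 CPM in CD71- and 6.07 and 9.05 in CD71+, and did not pass (0.0976 after adjustment). Without single libraries the call was lost for S100a8 (-0.53 without CD71- replicate 2, -0.52 without CD71+ replicate 1, -0.70 without CD71+ replicate 2).

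DESeq2 size factors gave 24 falls among these 25 genes, those of S100a9 and Ly6g among them (-0.71 and -0.86). On total counts 7 of the 25 fell and none rose, with a median of -0.47. With libraries scaled on the list itself its median is near 0 by construction (-0.02), and 1 member, S100a9, was called higher. The count of members that fell ranged from 19 to 24 over the 8 fits that each left out 1 library. The size of the fall thus depended on the scaling. A lower summed level can also come from fewer neutrophils in the sorted cells or from less of this RNA per cell. Bulk libraries cannot tell these apart.

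Tfrc, the gene of the sort marker, was not higher in the CD71+ fraction. It had 187 and 145 CPM in the CD71- libraries and 103 and 108 CPM in the CD71+ libraries. Both CD71+ libraries lay below both CD71- libraries (log2 fold change -0.65 ± 0.19 SE, adjusted p = 0.0134). The log2 fold change was -0.87 with DESeq2 size factors, -0.08 on total counts and 0.35 with the mature neutrophil genes held level. Per 100 counts of mature neutrophil genes, which no scaling alters, Tfrc had 0.465 and 0.335 counts in CD71- and 0.476 and 0.521 in CD71+. The sort read the protein at the cell surface, which these libraries did not measure. On leaving out a library, no call was made for Tfrc (-0.61 without CD71- replicate 1, -0.62 without CD71+ replicate 1, -0.69 without CD71+ replicate 2).

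**Figure D3:**
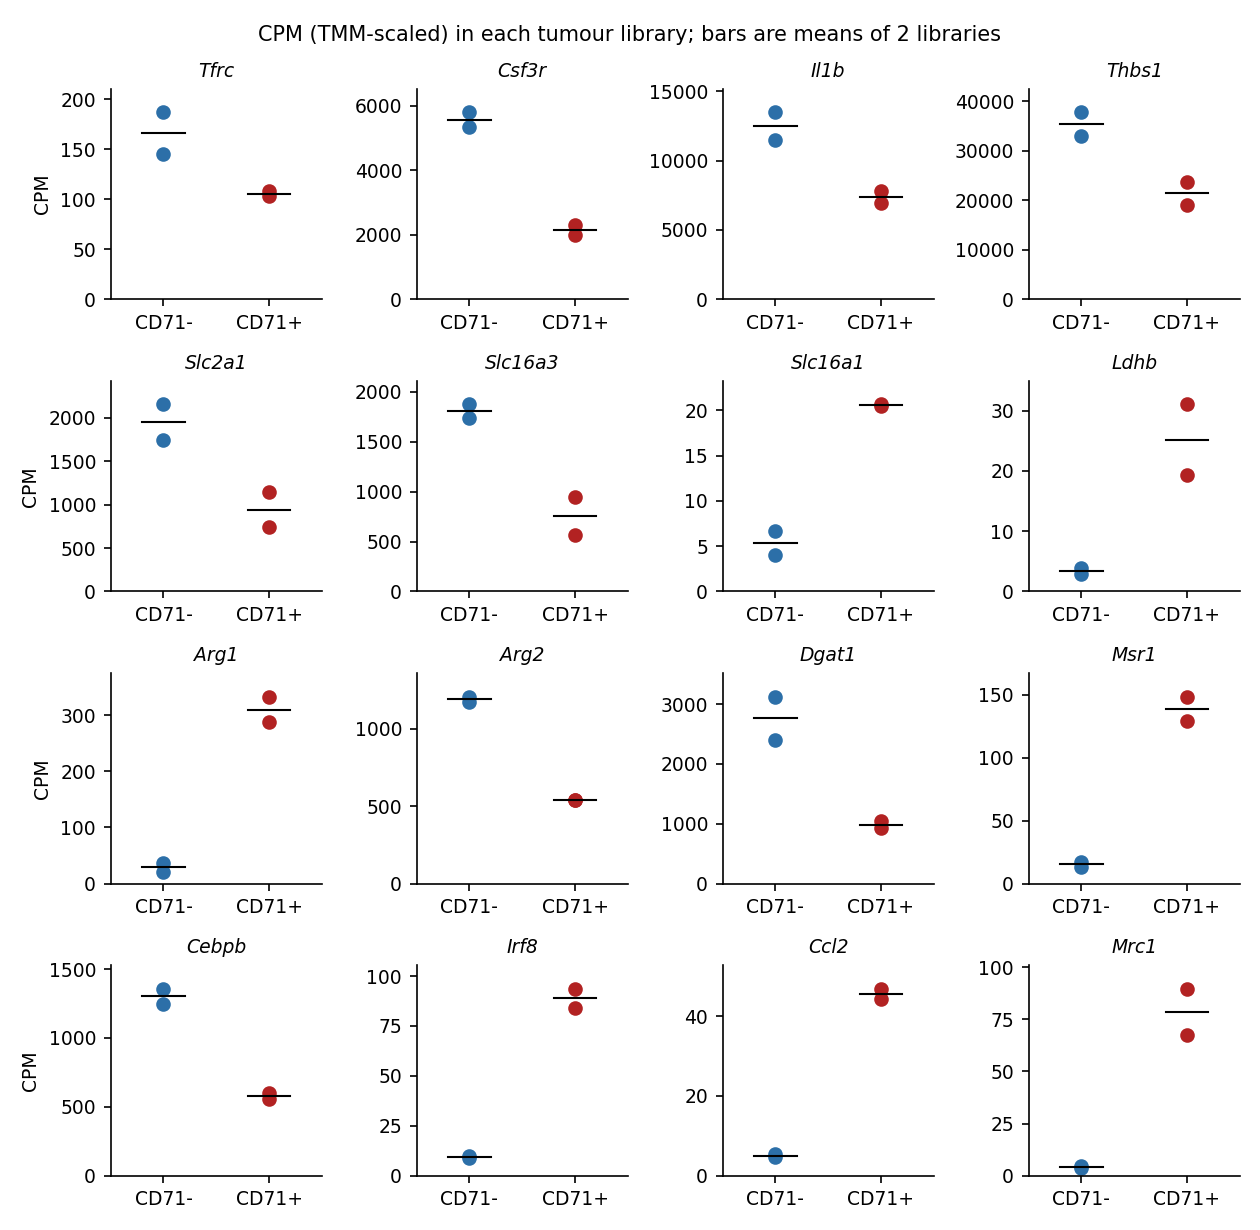
CPM on TMM-scaled library sizes of 16 genes in each of the 4 tumour libraries, CD71- in blue and CD71+ in red, on linear axes that start at 0, with a bar at the mean of the 2 libraries of a fraction. For each of the 16 genes the 2 CD71+ points lie on one side of the 2 CD71- points, below for Tfrc, Csf3r, Il1b, Thbs1, Slc2a1, Slc16a3, Arg2, Dgat1 and Cebpb and above for the others. The same lack of overlap was found for 72.5% of all genes tested.

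Markers of macrophages and monocytes were higher in the CD71+ fraction. Of 20 markers 19 were tested, and 16 of them rose under TMM and none fell, with a median log2 fold change of 3.06 (3.04 with Folr2, which had no count in CD71-, set to its bound). The same 16 rose under each of the other 3 scalings (Cd68 fell with DESeq2 size factors), and 15 or 16 rose in every fit that left out 1 library. Their summed level was 963.6 and 955.8 CPM in CD71- and 4183 and 4579 CPM in CD71+. Mrc1, the mannose receptor, had 4.47 and 3.75 CPM in the CD71- libraries and 67.3 and 89.6 CPM in the CD71+ libraries (log2 fold change 4.25 ± 0.27 SE, adjusted p = 4.01e-07). The complement gene C1qa had 34 and 46.8 CPM in CD71- and 411 and 481 in CD71+, and the lipoprotein gene Apoe 68.2 and 79.2 CPM in CD71- and 765 and 701 in CD71+. Cx3cr1, the fractalkine receptor, and Ccr2, the receptor that marks monocytes leaving the marrow, rose by 3.65 and 3.06. Ms4a7, a membrane protein of macrophages, had 0.419 and 0.694 CPM in CD71- and 11.4 and 9.42 in CD71+. Csf1r, the receptor for the growth factor of macrophages, had 266 and 238 CPM in CD71- and 850.4 and 1034 in CD71+ (1.90). Folr2 was at 0 counts in both CD71- libraries and at 1.44 and 2.17 CPM in CD71+, at least 4.32-fold higher against 3 counts per library. Cd68, Gpnmb and Ly6c2 did not pass, with -0.37, 0.44 and 0.38.

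Microglia markers moved the same way. Of 10 markers, 9 rose and none fell, with a median of 3.36. Tmem119, a microglial membrane protein, had 9.23 and 11 CPM in CD71- and 87.8 and 77.3 in CD71+, and Sall1, a transcription factor of microglia, 5.59 and 6.11 CPM in CD71- and 63 and 92.5 in CD71+. P2ry12, the nucleotide receptor of resting microglia, had 11.7 and 21.2 CPM in CD71- and 69.1 and 109.9 in CD71+ (2.44), whereas P2ry13 overlapped between the fractions at 61.7 and 89.5 CPM in CD71- and 85 and 103 in CD71+. Gpr34, a G protein-coupled receptor of microglia, had 0.979 and 2.08 CPM in CD71- and 18.6 and 43 in CD71+. The summed level was 205.8 and 250.9 CPM in CD71- and 1061 and 1526 CPM in CD71+.

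Ratios within a library do not depend on its scaling. Per 100 counts of the mature neutrophil genes, the macrophage and monocyte markers had 2.4 and 2.21 counts in CD71- and 19.3 and 22.1 in CD71+. The microglia markers had 0.512 and 0.579 counts in CD71- and 4.89 and 7.36 in CD71+. These levels moved with the sort fraction in all 4 libraries, and their part in the rises of other genes was not tested. Of the 4182 genes that rose, 695 rose by at least the median of the macrophage list.

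**Figure D4:**
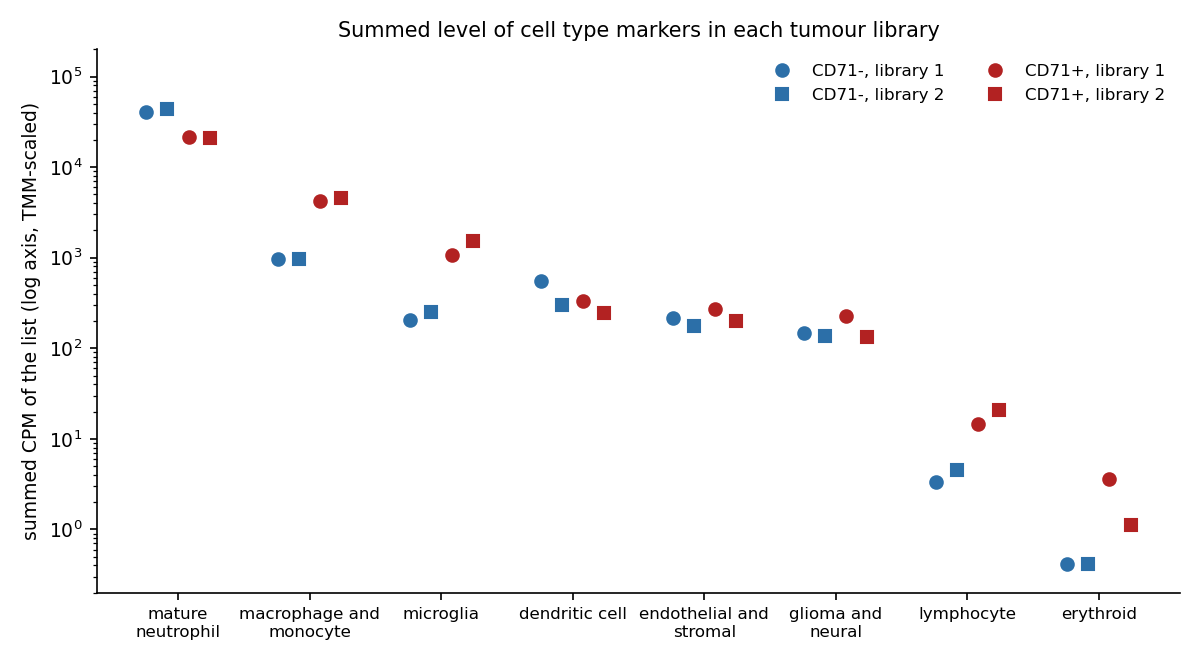
Summed CPM of each marker list in the 4 tumour libraries, on a log axis, CD71- in blue and CD71+ in red, circles for library 1 and squares for library 2. Mature neutrophil genes lie lower in CD71+ (21680 and 20730 against 40160 and 43290 CPM), macrophage and microglia markers lie higher, and erythroid markers lie at or below 3.56 CPM throughout.

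Markers of erythroid cells and lymphocytes had few counts. Erythroid genes were at or near 0 although CD71 is abundant on erythroid precursors: the globin genes Hba-a1, Hba-a2 and Hbb-bt had 0 counts in all 4 libraries, which allows up to 3 counts each, and Hbb-bs had 1 and 0 counts in CD71- and 5 and 0 in CD71+. Alas2, of haem synthesis, had 1 and 2 counts in CD71- and 17 and 10 in CD71+. Lymphocyte markers summed to 3.36 and 4.58 CPM in CD71- and 14.6 and 20.7 in CD71+. Of 12, only 4 were tested and all 4 rose, and none was called without replicate 1 of CD71-. The 2 CD71+ libraries differed in Cd8a, of T cells, with 5 counts in replicate 1 and 72 in replicate 2. Of 8 dendritic cell markers tested 5 rose and 1 fell, but 2 rose without replicate 2 of CD71-. Ccr7, the homing receptor of migratory dendritic cells, had 1.4 and 0.971 CPM in CD71- and 8.67 and 4.71 in CD71+, while Itgax, which neutrophils also express, had 536 and 296 CPM in CD71- and 281 and 209 in CD71+. Fscn1, which bundles actin in mature dendritic cells, rose by 2.18. Some fits with a library left out did not call Itgax (-0.42 without CD71- replicate 1, -0.57 without CD71+ replicate 2) and Fscn1 (1.63 without CD71- replicate 2).

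Glioma and neural markers summed to 146 and 136 CPM in CD71- and 225 and 133 in CD71+, so the sums overlapped. Of 7 tested, 4 rose and none fell (1 rose without replicate 2 of CD71-). Slc1a3, a glutamate transporter of astrocytes, had 1.54 and 1.39 CPM in CD71- and 13.2 and 18.2 in CD71+, Ptprz1 0.699 and 1.8 CPM in CD71- and 26.6 and 2.92 in CD71+ and Mbp, a myelin gene, 116 and 116 CPM in CD71- and 112 and 77.2 in CD71+. Nes, an intermediate filament of neural progenitors, rose by 1.77. Endothelial and stromal markers overlapped in sum (218 and 177 against 275 and 199 CPM), with 4 of 8 higher and 1 lower. Col3a1, a fibrillar collagen, had 17.1 and 5.55 CPM in CD71- and 48.1 and 34.5 in CD71+ (1.87), and Kdr, the endothelial receptor for vascular growth factor, 0.559 and 0.694 CPM in CD71- and 5.01 and 11.1 in CD71+ (3.67). Pdgfrb, of pericytes, and Col1a2 rose by 2.40 and 2.27, and Pecam1, which leukocytes also express, fell by 0.66. The platelet genes Pf4 and Ppbp rose (3.75 and 2.14) while Itga2b, Tubb1 and Itgb3 of the same list fell (-1.44, -1.30 and -0.78), though none of the 3 was called on total counts. Calls did not hold in every fit with a library left out for Nes (1.05 without CD71- replicate 2, 1.45 without CD71+ replicate 1), Col1a2 (1.70 without CD71- replicate 2, 1.28 without CD71+ replicate 1) and Pecam1 (-0.55 without CD71+ replicate 1). A library left out ended the call of Ppbp (1.88 without CD71- replicate 1, 2.14 without CD71- replicate 2), Itga2b (-1.38 without CD71- replicate 1, -1.11 without CD71+ replicate 2) and Tubb1 (-1.35 without CD71- replicate 1, -1.05 without CD71+ replicate 2). Single libraries decided the call of Itgb3 (-0.83 without CD71- replicate 1, -0.75 without CD71+ replicate 2).

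Promoters of a mature neutrophil gene and of a macrophage marker are shown because both hold the PU.1 sequence GAGGAAGT. PU.1 is the transcription factor common to neutrophils and macrophages, and the sequences are the 250 bases before the start in RefSeq (GRCm38.p6, the assembly of mm10), 5′ to 3′ on the gene's strand, with the match on either strand in capitals. Ly6g lies at chr15:75155011-75155260 (plus strand) and C1qc, a complement gene, at chr4:136892915-136893164 (minus strand).
Ly6g: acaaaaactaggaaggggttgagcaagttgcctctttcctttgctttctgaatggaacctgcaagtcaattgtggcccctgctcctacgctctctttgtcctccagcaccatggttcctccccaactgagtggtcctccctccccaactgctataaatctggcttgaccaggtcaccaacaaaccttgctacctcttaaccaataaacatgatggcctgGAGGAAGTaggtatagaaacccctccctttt
C1qc: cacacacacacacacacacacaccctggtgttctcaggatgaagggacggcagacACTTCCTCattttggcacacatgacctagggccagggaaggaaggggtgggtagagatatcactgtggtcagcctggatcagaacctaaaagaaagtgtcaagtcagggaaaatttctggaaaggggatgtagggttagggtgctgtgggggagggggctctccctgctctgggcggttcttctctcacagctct
In windows from 250 bases before to 50 after the start, this sequence was found for 3 of 20 mature neutrophil genes with an entry (15.0%), 2 of 15 macrophage and monocyte markers (13.3%) and 3.69% of all 27025 genes with a window. C1qc had 25.4 and 36.6 CPM in CD71- and 338 and 346 in CD71+ and rose by 3.46, while Ly6g had a value of -0.64 and did not pass. A match describes letters only, not binding. The C/EBP palindrome TTGCGCAA was in none of the windows of either list and in 0.207% of all genes, while the looser TTNNGNAA was in 55.0% of the neutrophil genes, 73.3% of the macrophage markers and 44.1% of all genes.

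Genes of glycolysis and lactate had more falls than rises under TMM. Of 24 genes 11 fell (45.8%) and 4 rose, with a median of -0.48. Of all genes 17.3% fell, but most members lay above 100 CPM, where falls were common in any gene. From 100 to 1000 CPM 61.5% of all genes fell. Slc2a3, a high-affinity glucose transporter, had 1355 and 1410.3 CPM in the CD71- libraries and 539 and 513 CPM in the CD71+ libraries. Both CD71+ libraries were below both CD71- libraries (log2 fold change -1.39 ± 0.23 SE, adjusted p = 0.000436). Slc2a1, the other main glucose transporter, had 2153 and 1741 CPM in CD71- and 1139.8 and 744 in CD71+ (log2 fold change -1.05 ± 0.21 SE, adjusted p = 0.00135). The hexokinases Hk3, Hk1 and Hk2 fell by 1.12, 0.73 and 0.53, and the phosphofructokinase genes Pfkl and Pfkp by 0.96 and 0.89 on the log2 scale. Pfkfb4 and Pfkfb3, which set the activator of phosphofructokinase, fell by 1.10 and 0.64. Of the enzymes of the lower part, Pgam1, phosphoglycerate mutase, fell from 156 and 146 CPM in CD71- to 117 and 97.1 in CD71+ (log2 fold change -0.50 ± 0.18 SE, adjusted p = 0.0381). Pkm, pyruvate kinase, had -0.52 (adjusted p = 0.0534), Gapdh, Pgk1, Aldoa and Eno1 had 0.18, -0.11, -0.19 and -0.41, and none of these 5 passed. Ldha, which makes lactate, had 962 and 954 CPM in CD71- and 744 and 659 in CD71+ and did not pass (log2 fold change -0.45 ± 0.19 SE, adjusted p = 0.0707). Both Ldha and Pkm were called lower with DESeq2 size factors (-0.67 and -0.74). Without single libraries the call was lost for Hk1 (-0.51 without CD71+ replicate 2), Hk2 (-0.54 without culture CD71+ replicate 1, -0.54 without culture CD71+ replicate 2, -0.35 without CD71- replicate 1, -0.66 without CD71+ replicate 1, -0.42 without CD71+ replicate 2) and Pfkl (-0.88 without CD71- replicate 1, -0.69 without CD71+ replicate 2). On leaving out a library, no call was made for Pfkfb3 (-0.63 without CD71+ replicate 2) and Pgam1 (-0.60 without CD71- replicate 1, -0.66 without CD71- replicate 2, -0.39 without CD71+ replicate 2).

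The 4 genes of the list that rose were Ldhb, Slc16a1, Pdha1 and Aldoc. Ldhb, the subunit favoured in tissues that oxidise lactate, had 2.94 and 3.89 CPM in CD71- and 19.4 and 31 in CD71+ (log2 fold change 2.88 ± 0.40 SE, adjusted p = 0.000129), and Slc16a1, a monocarboxylate transporter that can take up lactate, had 6.71 and 4.02 CPM in CD71- and 20.4 and 20.6 in CD71+ (log2 fold change 1.93 ± 0.31 SE, adjusted p = 0.000352). Pdha1, of pyruvate dehydrogenase, and Aldoc, an aldolase, rose by 0.74 and 1.22. Slc16a3, the lactate exporter of glycolytic cells, fell from 1872 and 1738 CPM in CD71- to 947 and 569 in CD71+ (log2 fold change -1.25 ± 0.25 SE, adjusted p = 0.00168). Slc16a1 had, per 100 counts of Slc16a3, 0.358 and 0.232 counts in CD71- and 2.16 and 3.62 in CD71+. Ldhb had, per 100 counts of Ldha, 0.305 and 0.407 counts in CD71- and 2.6 and 4.7 in CD71+. All 4 rises held under each of the 4 scalings. DESeq2 size factors gave 14 falls and 4 rises among the 24 genes. On total counts 4 fell (16.7%, against 3.04% of all genes) and 6 rose (25%, against 42.5%). None fell with the mature neutrophil genes held level, when 12 rose (50%, against 56.8% of all genes). The list median ran from -0.65 to -0.38 with 1 library left out. Some fits with a library left out did not call Pdha1 (0.55 without CD71- replicate 1, 0.66 without CD71- replicate 2) and Aldoc (0.85 without CD71- replicate 1, 1.38 without CD71- replicate 2, 1.06 without CD71+ replicate 1).

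The promoters of these lactate transporters are shown because their genes moved in opposite directions and both hold ACGTG, the core letters of the hypoxia response element, which are in capitals (either strand, 250 bases before the RefSeq start, GRCm38.p6, 5′ to 3′). Slc16a3 lies at chr11:120948817-120949066 (plus strand) and Slc16a1 at chr3:104638414-104638663 (plus strand).
Slc16a3: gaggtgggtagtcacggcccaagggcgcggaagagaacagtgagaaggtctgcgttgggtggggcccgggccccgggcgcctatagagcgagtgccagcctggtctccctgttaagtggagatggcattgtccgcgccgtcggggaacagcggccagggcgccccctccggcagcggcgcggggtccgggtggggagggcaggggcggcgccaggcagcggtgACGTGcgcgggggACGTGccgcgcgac
Slc16a1: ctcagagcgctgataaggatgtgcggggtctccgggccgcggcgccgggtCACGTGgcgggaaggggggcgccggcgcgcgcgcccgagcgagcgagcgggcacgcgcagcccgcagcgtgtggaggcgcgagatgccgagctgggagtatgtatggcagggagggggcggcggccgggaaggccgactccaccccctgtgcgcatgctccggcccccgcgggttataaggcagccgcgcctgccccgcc
The Slc16a3 stretch holds 2 matches near the start, and the Slc16a1 stretch holds the palindrome CACGTG, which matches on both strands. In the 300-base windows ACGTG was found for 14 of 23 genes of glycolysis and lactate with an entry (60.9%), 7 of 20 mature neutrophil genes (35.0%), 1 of 15 macrophage and monocyte markers (6.67%) and 21.8% of all genes. Base composition was not matched here.

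Most hypoxia response genes fell under TMM. Of 22 genes 12 fell (54.5%) and 2 rose, with a median of -0.57. Of all genes 17.3% fell, but most members lay above 100 CPM, where falls were common in any gene. From 100 to 1000 CPM 61.5% of all genes fell. Vegfa, the vascular growth factor, had 1477 and 1002 CPM in CD71- and 955 and 690.0 in CD71+ (log2 fold change -0.59 ± 0.22 SE, adjusted p = 0.0418). Kdm3a, a histone demethylase, and Egln3, an oxygen sensor, fell by 0.93 and 0.75, and Ankrd37 by 1.02. Hif1a itself had 892 and 909 CPM in CD71- and 725 and 706 in CD71+ and did not pass (adjusted p = 0.123), while Epas1, which encodes the related HIF-2 alpha, rose from 3.08 and 1.39 CPM in CD71- to 5.88 and 7.16 in CD71+ (1.54). The calls of this list depended on the scaling and on single libraries. DESeq2 size factors gave 16 falls among the 22, that of Hif1a among them (-0.55), and 1 rise. None of the 22 fell on total counts, when 6 rose (27.3%, against 42.5% of all genes). None fell with the mature neutrophil genes held level, when 8 rose (36.4%, against 56.8% of all genes). The list median ran from -0.74 to -0.55 with 1 library left out. Calls did not hold in every fit with a library left out for Vegfa (-0.60 without culture CD71+ replicate 1, -0.60 without culture CD71+ replicate 2, -0.44 without CD71- replicate 1, -0.38 without CD71+ replicate 2), Egln3 (-0.60 without CD71+ replicate 2) and Epas1 (0.97 without CD71- replicate 2).

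Writers, erasers and readers of histone acylation, which include the enzymes linked to lactylation, split. Of 18 genes 5 fell and 3 rose. Ep300, the acetyltransferase also held to write lactylation, had 358 and 452 CPM in CD71- and 328 and 288 in CD71+ and did not pass (adjusted p = 0.0852), and its relative Crebbp fell by 0.64. Acss2, which makes acetyl-CoA from acetate, had 23.1 and 22.3 CPM in CD71- and 10.9 and 8.39 in CD71+ (-1.24). Acly, which makes acetyl-CoA from citrate, rose from 70.7 and 61.8 CPM in CD71- to 142 and 123 in CD71+ (1.0). Kat2a, an acetyltransferase, and Hdac2, a deacetylase, rose by 1.98 and 1.92. The deacetylases Hdac1 and Hdac3 and the alanyl-tRNA synthetase Aars, also reported as a lactyl transferase, had -0.26, 0.08 and 0.12 and did not pass. DESeq2 size factors gave 8 falls, that of Ep300 among them (-0.62), and 3 rises. No gene of the list fell on total counts, when 8 rose (44.4%, against 42.5% of all genes). None fell with the mature neutrophil genes held level, when 11 rose (61.1%, against 56.8% of all genes). The list median ran from -0.33 to -0.16 with 1 library left out. A library left out ended the call of Crebbp (-0.51 without CD71+ replicate 2).

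Iron genes changed in both directions. Of 18 genes 6 rose and 6 fell. Slc40a1, the iron exporter ferroportin, had 225 and 226 CPM in CD71- and 104 and 102 in CD71+ (log2 fold change -1.13 ± 0.18 SE, adjusted p = 0.000291), and Slc11a1, the phagosomal metal transporter, had 1607 and 1088 CPM in CD71- and 834 and 481 in CD71+ (-1.04). Steap4, a metalloreductase, and Slc25a37, the mitochondrial iron importer, fell by 1.01 and 0.77. Slc11a2, the transporter that takes iron out of the endosome after CD71 uptake, rose from 5.73 and 5.83 CPM in CD71- to 35 and 41.3 in CD71+ (log2 fold change 2.72 ± 0.26 SE, adjusted p = 5.87e-06). Hfe, which binds CD71, rose by 2.75, Cp, the ferroxidase ceruloplasmin, by 3.10 and Aco1, an iron-responsive RNA-binding protein, by 2.21. Its paralogue Ireb2 had 0.46 (adjusted p = 0.0554), and the ferritin genes Fth1 and Ftl1 had -0.51 and -0.57 and did not pass. DESeq2 size factors gave 5 rises and 8 falls, that of Fth1 among them (-0.73). On total counts 9 rose (50%, against 42.5% of all genes) and 1 fell. With the mature neutrophil genes held level 10 rose (55.6%, against 56.8% of all genes) and none fell. Without replicate 1 of the culture CD71+ libraries 4 rose, and without replicate 1 of CD71- in tumour 4 fell. Macrophage and microglia markers rose in the same tumour libraries, with medians of 3.06 and 3.36. Their part in the rises of Slc11a2, Hfe, Cp and Aco1 was not tested. Single libraries decided the call of Slc11a1 (-0.88 without CD71- replicate 1, -0.70 without CD71+ replicate 2).

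The arginases moved apart. Arg1, the cytosolic arginase, had 37.3 and 21.4 CPM in the CD71- libraries and 333 and 287 CPM in the CD71+ libraries. Every CD71+ library was above every CD71- library (log2 fold change 3.40 ± 0.27 SE, adjusted p = 2.79e-06), and the rise was called under all 4 scalings. Macrophage and monocyte markers rose in the same libraries, with a median of 3.06, and their part in the rise of Arg1 was not tested. Arg2, the mitochondrial arginase, had 1206 and 1173 CPM in the CD71- libraries and 537 and 536 CPM in the CD71+ libraries (log2 fold change -1.15 ± 0.19 SE, adjusted p = 0.000387). Per 100 counts of Arg2, Arg1 had 3.1 and 1.82 counts in CD71- and 62.1 and 53.6 in CD71+. With Arg1 rose Slc7a2, an arginine transporter (3.5 and 2.64 CPM in CD71- and 24 and 30.0 in CD71+), Ass1, which remakes arginine from citrulline (4.75 and 1.94 CPM in CD71- and 26.5 and 22.8 in CD71+), and the polyamine synthases Srm and Sms, by 3.79 and 1.90. Odc1, the first enzyme of polyamine synthesis, had 357 and 276 CPM in CD71- and 271 and 287 in CD71+ and did not pass, and Sat1, which starts their breakdown, fell by 0.56. Of 13 genes tested 5 rose and 4 fell, and the same number rose in every fit with 1 library left out, while 1 fell without replicate 1 of CD71+. On total counts 5 rose (38.5%, against 42.5% of all genes) and 1 fell. With the mature neutrophil genes held level 9 rose (69.2%, against 56.8% of all genes) and none fell. Without single libraries the call was lost for Sat1 (-0.50 without CD71+ replicate 1, -0.64 without CD71+ replicate 2).

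Il1b and the neutrophil chemokine Cxcl2 fell, and the monocyte chemokines Ccl2 and Ccl7 rose. Of 26 cytokines and chemokines 9 fell and 8 rose. Il1b had 13484 and 11511 CPM in the CD71- libraries and 7781 and 6957 CPM in the CD71+ libraries (log2 fold change -0.76 ± 0.18 SE, adjusted p = 0.00386). Cxcl2, a neutrophil chemokine, had 10583 and 11034 CPM in CD71- and 6751 and 5529 in CD71+ (-0.82), Osm 2107 and 1888 CPM in CD71- and 1168 and 1051 in CD71+ (-0.85), and Csf1 and Il1rn fell by 0.79 and 0.68. Ccl2, which draws monocytes, had 5.31 and 4.72 CPM in the CD71- libraries and 44.3 and 46.8 CPM in the CD71+ libraries (log2 fold change 3.18 ± 0.30 SE, adjusted p = 5.73e-06). Ccl7 and Il6 rose from 2.52 and 0.555 CPM in CD71- to 18.4 and 16.2 in CD71+ and from 1.4 and 1.94 CPM in CD71- to 19.8 and 10.4 in CD71+, and Cxcl16 and Ccl9 by 1.99 and 0.88. Ccl2 had, per 100 counts of Cxcl2, 0.0502 and 0.0428 counts in CD71- and 0.656 and 0.847 in CD71+. Macrophage and microglia markers rose in the same libraries, and their part in the rises of these chemokines was not tested. Ccl3, Ccl4, Il1a and Cxcl10 did not pass (-0.41, -0.17, -0.36 and 0.33). On leaving out a library, no call was made for Il1b (-0.69 without CD71+ replicate 2), Cxcl2 (-0.90 without CD71- replicate 2, -0.97 without CD71+ replicate 1, -0.69 without CD71+ replicate 2) and Il1rn (-0.59 without CD71+ replicate 2).

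The subunits of interleukin 12 and 23 differed. Il12b, the shared p40 subunit, had 0 counts in both CD71- libraries and 3.76 and 12.1 CPM in CD71+, at least 18.9-fold higher against 3 counts per library. The bound was 8.99 without replicate 2 of CD71+ and 28.9 without replicate 1. Il12a fell from 17.2 and 15.4 CPM in CD71- to 8.86 and 6.5 in CD71+ and Il23a from 148 and 176 CPM in CD71- to 99.8 and 96.8 in CD71+ (-1.08 and -0.72). For the whole list of cytokines and chemokines DESeq2 size factors gave 13 falls and 8 rises. No member fell on total counts, when 10 rose (38.5%, against 42.5% of all genes). None fell with the mature neutrophil genes held level, when 16 rose (61.5%, against 56.8% of all genes). Without replicate 2 of CD71+ 2 members fell. Some fits with a library left out did not call Il12a (-1.16 without CD71- replicate 1, -1.27 without CD71- replicate 2, -1.33 without CD71+ replicate 1, -0.89 without CD71+ replicate 2) and Il23a (-0.70 without CD71- replicate 2, -0.74 without CD71+ replicate 1, -0.71 without CD71+ replicate 2).

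Interferon-stimulated genes had more falls than rises under TMM. Of 20 genes 10 fell and 4 rose. The falls made 50%, against 17.3% of all genes and 61.5% of those from 100 to 1000 CPM. Oasl2 had 1097 and 1052 CPM in CD71- and 543 and 545 in CD71+ (-0.98), Rsad2, an antiviral enzyme, 1566 and 1566 CPM in CD71- and 970.3 and 904 in CD71+ (-0.74), and Ddx58, the RNA sensor RIG-I, fell by 0.97. Oasl1 fell by 1.05. Mx1, an antiviral GTPase, rose from 2.66 and 2.22 CPM in CD71- to 26.3 and 37.9 in CD71+ (log2 fold change 3.71 ± 0.33 SE, adjusted p = 3.55e-06) and Bst2, which tethers virus at the membrane, from 11 and 7.77 CPM in CD71- to 40.5 and 39.1 in CD71+ (2.08). The 4 rises held under every scaling. DESeq2 size factors gave 13 falls. No member fell on total counts, when 5 rose (25%, against 42.5% of all genes). None fell with the mature neutrophil genes held level, when 9 rose (45%, against 56.8% of all genes).

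Class II genes of antigen presentation rose, and class I genes changed in both directions. H2-Ab1, a class II chain, had 30.3 and 27.2 CPM in CD71- and 112 and 89.4 in CD71+ (log2 fold change 1.81 ± 0.22 SE, adjusted p = 4.76e-05), Cd74, the invariant chain, 100.4 and 93.7 CPM in CD71- and 392 and 306 in CD71+ (1.85), and H2-DMa and H2-DMb1, which load peptide, rose by 2.31 and 3.15. Ciita, the activator of class II genes, had 0.419 and 0.694 CPM in CD71- and 7.61 and 4.24 in CD71+ (3.39). Of the class I genes, H2-D1 fell, with 1642 and 1575 CPM in CD71- and 1162 and 1128 in CD71+ (-0.49), and Nlrc5, the activator of class I genes, and Tapbp, a chaperone of peptide loading, fell by 0.52 and 0.50. B2m, the class I light chain, rose from 624 and 886 CPM in CD71- to 1095 and 1287 in CD71+ (log2 fold change 0.66 ± 0.23 SE, adjusted p = 0.0333), but was not called with DESeq2 size factors (0.43). H2-K1 and the immunoproteasome genes Psmb8 and Psmb9 had -0.35, 0.54 and 0.37 and did not pass. H2-Ab1 had, per 100 counts of H2-D1, 1.85 and 1.73 counts in CD71- and 9.68 and 7.93 in CD71+. The costimulators changed in opposite directions: Cd86 rose from 34.8 and 28.9 CPM in CD71- to 135 and 140.3 in CD71+ (log2 fold change 2.11 ± 0.19 SE, adjusted p = 4.13e-06) and Cd80 fell from 1478 and 1184 CPM in CD71- to 601 and 575 in CD71+ (log2 fold change -1.18 ± 0.20 SE, adjusted p = 0.000512). Of the 20 genes 11 rose and 4 fell, and 1 fell without replicate 2 of CD71+. On total counts 13 rose (65%, against 42.5% of all genes) and 1 fell. With the mature neutrophil genes held level 16 rose (80%, against 56.8% of all genes) and none fell. Class II genes are also expressed by macrophages and dendritic cells, whose markers rose in the same libraries, and their part in these rises was not tested. Calls did not hold in every fit with a library left out for Ciita (2.93 without CD71- replicate 1), H2-D1 (-0.51 without CD71+ replicate 1, -0.48 without CD71+ replicate 2) and Nlrc5 (-0.46 without CD71- replicate 1, -0.44 without CD71+ replicate 1, -0.62 without CD71+ replicate 2). A library left out ended the call of Tapbp (-0.51 without culture CD71+ replicate 1, -0.51 without culture CD71+ replicate 2, -0.56 without CD71- replicate 1, -0.70 without CD71- replicate 2, -0.26 without CD71+ replicate 2) and B2m (0.27 without CD71- replicate 1, 0.77 without CD71+ replicate 1, 0.52 without CD71+ replicate 2).

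Lipid genes changed in both directions. Of 19 genes 9 fell and 5 rose. The falls made 47.4%, against 17.3% of all genes and 61.5% of those from 100 to 1000 CPM. Msr1, a scavenger receptor, had 17.3 and 13 CPM in the CD71- libraries and 149 and 129 CPM in the CD71+ libraries (log2 fold change 3.19 ± 0.20 SE, adjusted p = 4.01e-07). Lpl, which frees fatty acids from lipoproteins, rose by 3.43, Cd36, a fatty acid receptor, by 1.44 and Fabp4, a fatty acid carrier, by 1.60. What part macrophages, whose markers rose in the same libraries, had in these rises was not tested. The falls included the steps of making and breaking triglyceride. Dgat1, the last enzyme of triglyceride synthesis, had 3124 and 2399 CPM in the CD71- libraries and 1040.2 and 926 CPM in the CD71+ libraries (log2 fold change -1.49 ± 0.19 SE, adjusted p = 6.02e-05). Its paralogue Dgat2 had 391 and 377 CPM in CD71- and 202 and 144 in CD71+ (-1.15), the lipase Pnpla2 187 and 192 CPM in CD71- and 91.2 and 76.9 in CD71+ (-1.17), Slc27a4, a fatty acid importer, -1.25 and Acsl1, which activates fatty acids, -1.04. Plin2, which coats lipid droplets, fell by 0.69. Dgat1 was called lower under all 4 scalings, with -0.50 when the mature neutrophil genes were held level. Per 100 counts of those genes it had 7.78 and 5.54 counts in CD71- and 4.8 and 4.46 in CD71+. On total counts 5 of the 19 fell (26.3%, against 3.04% of all genes) and 9 rose (47.4%, against 42.5%). With the mature neutrophil genes held level 1 fell and 10 rose (52.6%, against 56.8% of all genes). Without replicate 2 of CD71- 3 of the 19 rose. Single libraries decided the call of Cd36 (1.12 without CD71- replicate 2) and Fabp4 (1.24 without CD71- replicate 2).

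Lysosomal genes rose, and macrophages are also rich in them. Of 16 genes 11 rose and 1 fell, with a median of 0.77 (7 rose without replicate 2 of CD71-). Ctss, a cathepsin of antigen-presenting cells, had 159 and 218 CPM in the CD71- libraries and 1115 and 1618 CPM in the CD71+ libraries (log2 fold change 2.86 ± 0.24 SE, adjusted p = 2.65e-06). Lgmn, an asparagine endopeptidase, had 99.5 and 84.2 CPM in CD71- and 585 and 733 in CD71+ (2.84), and Ctsc, which activates granule proteases, 60.5 and 71.5 CPM in CD71- and 315 and 326 in CD71+ (2.28). Grn, Gusb and Npc2 rose by 1.98, 1.92 and 1.49. Lamp2, a lysosomal membrane protein, was the 1 that fell (1075 and 1231 CPM in CD71- and 688 and 718 in CD71+), and it was not called on total counts (-0.15).

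Genes of the oxidase and the receptors of phagocytes had more falls than rises under TMM. Of 19 genes tested 10 fell and 3 rose. The falls made 52.6%, against 17.3% of all genes and 61.5% of those from 100 to 1000 CPM. Ncf4 and Ncf1, cytosolic subunits of the NADPH oxidase, fell by 1.02 and 0.84, whereas its membrane subunit Cybb, counted here among the secondary granule genes, rose from 91.7 and 115 CPM in CD71- to 231 and 229.9 in CD71+ (log2 fold change 1.16 ± 0.19 SE, adjusted p = 0.000465). Cd14, the co-receptor for endotoxin, had 5071 and 4782 CPM in CD71- and 3173 and 1977 in CD71+ (-0.94), and Tlr4 and the formyl peptide receptor Fpr1 fell by 0.93 and 0.85. Axl, which binds dying cells, rose from 18.9 and 11.9 CPM in CD71- to 168 and 157 in CD71+ (3.40), C3ar1, a complement receptor, from 16.5 and 16.5 CPM in CD71- to 169 and 187 in CD71+ (3.43) and Fcgr2b, the inhibitory receptor for IgG, by 0.94. The part of macrophages and microglia, whose markers rose in the same libraries, in these 3 rises was not tested. DESeq2 size factors gave 13 falls and 3 rises among the 19 genes. On total counts 2 fell and 3 rose (15.8%, against 42.5% of all genes). None fell with the mature neutrophil genes held level, when 9 rose (47.4%, against 56.8% of all genes). Without single libraries the call was lost for Cd14 (-0.65 without CD71+ replicate 2).

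Genes tied to suppression by tumour neutrophils mostly fell or did not pass, while Arg1 rose. Of 19 genes tested 9 fell and 2 rose, with a median of -0.66. The falls made 47.4%, against 17.3% of all genes and 61.5% of those from 100 to 1000 CPM. Cd274, which encodes PD-L1, had 1775 and 1464 CPM in CD71- and 1079.6 and 940.3 in CD71+ (log2 fold change -0.68 ± 0.19 SE, adjusted p = 0.0102), Entpd1, an ectonucleotidase, 3014 and 2754 CPM in CD71- and 1372 and 1292 in CD71+ (-1.11), and Olr1, the oxidised lipoprotein receptor, 631 and 494 CPM in CD71- and 379.8 and 293 in CD71+ (-0.74). Ptgs2, which makes prostaglandins, had 7531 and 7778 CPM in CD71- and 4729.9 and 4504 in CD71+ and did not pass (adjusted p = 0.0508), and Tnfrsf10b had -0.66 (adjusted p = 0.117). Jaml, an adhesion molecule of leukocytes, fell by 1.17. Ptges, which makes prostaglandin E2, rose by 0.94. Havcr2, which encodes TIM-3, rose from 52.2 and 59.5 CPM in CD71- to 110.3 and 127 in CD71+ (log2 fold change 1.09 ± 0.19 SE, adjusted p = 0.000694). Markers of macrophages and microglia rose in the same libraries, and their part in the rise of Havcr2 was not tested. DESeq2 size factors gave 14 falls among the 19, those of Ptgs2 and Tnfrsf10b among them (-0.95 and -0.88), and 1 rise. On total counts 2 members fell (10.5%, against 3.04% of all genes) and 3 rose (15.8%, against 42.5%). None fell with the mature neutrophil genes held level, when 7 rose (36.8%, against 56.8% of all genes). The list median ran from -0.82 to -0.60 with 1 library left out. On leaving out a library, no call was made for Cd274 (-0.60 without CD71+ replicate 2), Olr1 (-0.58 without CD71+ replicate 2) and Ptges (0.85 without CD71- replicate 1, 0.77 without CD71- replicate 2, 0.60 without CD71+ replicate 1).

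Transcription factors of the myeloid lineage changed in both directions. Of 19 tested 10 fell and 5 rose. The falls made 52.6%, against 17.3% of all genes and 61.5% of those from 100 to 1000 CPM. Cebpb, a factor of emergency granulopoiesis, had 1358 and 1245 CPM in the CD71- libraries and 599.9 and 557 CPM in the CD71+ libraries (log2 fold change -1.17 ± 0.18 SE, adjusted p = 0.000303), while its paralogue Cebpa had 11.6 and 11.7 CPM in CD71- and 42.3 and 59.7 in CD71+ (log2 fold change 2.13 ± 0.25 SE, adjusted p = 3.45e-05). Irf8, which drives monocytes at the expense of granulocytes, had 9.93 and 8.6 CPM in the CD71- libraries and 93.6 and 84.2 CPM in the CD71+ libraries (log2 fold change 3.26 ± 0.25 SE, adjusted p = 1.22e-06). Klf4, a factor of monocytes, rose by 2.40, Irf4 by 3.09 and Runx3 by 1.28. The part of macrophages and monocytes, whose markers rose in the same libraries, in these rises was not tested. Stat3, Fosl2, Relb and Spi1, which encodes PU.1, fell by 0.99, 0.99, 1.03 and 0.69. Cebpa had, per 100 counts of Cebpb, 0.855 and 0.936 counts in CD71- and 7.05 and 10.7 in CD71+. The 5 rises held under each scaling, and 3 of the falls held on total counts and none with the mature neutrophil genes held level. Without replicate 2 of CD71+ 6 fell. Some fits with a library left out did not call Runx3 (0.92 without CD71- replicate 2) and Spi1 (-0.51 without CD71+ replicate 2).

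Genes of earlier neutrophil stages gave no common direction. Elane, Ctsg and Prss57, proteases of primary granules, had too few counts to be tested, and Mpo had 2.52 and 2.22 CPM in CD71- and 0.771 and 2.45 in CD71+. Of 9 tested, 1 passed, Cd34, a marker of progenitors and of vessels, at 1.54 and 2.08 CPM in CD71- and 16 and 26.8 in CD71+ (3.56). Among secondary granule genes 3 rose and 3 fell of 12, against 5 and 2 on total counts and 6 and 0 with the mature neutrophil genes held level. Olfm4 and Hp fell by 1.20 and 1.05. Lyz2, the lysozyme of macrophages and neutrophils, rose from 306 and 349 CPM in CD71- to 889.8 and 1071 in CD71+ (1.58), and Camp, which encodes cathelicidin, from 1.54 and 2.78 CPM in CD71- to 3.76 and 11.1 in CD71+. Ltf and Ngp varied between the CD71+ libraries and did not pass, with 64.6 and 84.6 CPM in CD71- and 64.8 and 166 in CD71+ for Ltf and 18.9 and 93 CPM in CD71- and 93.8 and 274 in CD71+ for Ngp. Calls did not hold in every fit with a library left out for Camp (1.27 without CD71- replicate 1, 2.16 without CD71- replicate 2, 0.78 without CD71+ replicate 2).

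Genes of growth rose. Of 28 genes of the Myc and ribosome biogenesis list 20 rose and none fell, with a median of 1.60. Npm1, the nucleolar chaperone, had 18.6 and 19 CPM in the CD71- libraries and 85 and 93.1 CPM in the CD71+ libraries (log2 fold change 2.24 ± 0.18 SE, adjusted p = 1.37e-06), and Myc had 6.01 and 2.08 CPM in CD71- and 15.6 and 16.6 in CD71+ (log2 fold change 1.99 ± 0.44 SE, adjusted p = 0.00362). Utp20 and Dkc1, of ribosomal RNA processing, rose by 2.66 and 2.57. Of 79 cytosolic ribosomal protein genes tested 53 rose and none fell, with a median of 1.23, against 0.28 over protein-coding genes. Of 32 nuclear genes of oxidative phosphorylation 18 rose and none fell, with a median of 0.77, for example Atp5a1 at 64.6 and 53.4 CPM in CD71- and 127 and 120.3 in CD71+ (1.07), Cyc1, cytochrome c1, at 1.92 and Ndufa9 at 2.1 and 3.05 CPM in CD71- and 10.3 and 13.8 in CD71+ (2.22). Among mitochondrially encoded mRNAs 1 of 13 passed, mt-Co1 at 3399.5 and 1726 CPM in CD71- and 5913 and 7488 in CD71+ (1.39), both CD71+ libraries lying above both CD71- libraries. None of these lists had a member that fell under any of the 4 scalings. Without replicate 2 of CD71- 13 genes of the Myc and ribosome biogenesis list rose, and without replicate 1 of CD71- 7 of oxidative phosphorylation did. A library left out ended the call of Myc (1.31 without CD71- replicate 2), Atp5a1 (0.83 without CD71- replicate 2) and mt-Co1 (0.87 without CD71- replicate 2).

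Cell cycle genes rose from low levels. Of 30 genes 17 rose and none fell, with a median of 1.42 (11 rose without replicate 2 of CD71-). Cenpf, a kinetochore protein of dividing cells, had 0.979 and 0.416 CPM in CD71- and 10.3 and 15.4 in CD71+ (log2 fold change 4.19 ± 0.50 SE, adjusted p = 4.32e-05), Top2a, which untangles DNA, 5.59 and 6.38 CPM in CD71- and 30.6 and 34.8 in CD71+ (2.45) and Mki67, the proliferation antigen, 34.3 and 28 CPM in CD71- and 51 and 93.1 in CD71+ (1.21). The replication helicase genes Mcm3, Mcm2 and Mcm6 rose by 3.18, 2.88 and 2.17, while Pcna had 87 and 73.4 CPM in CD71- and 73.7 and 71.3 in CD71+ and did not pass. E2F sequences were in few promoters of any kind: TTTGGCGC was found for 3 of 24 cell cycle genes with a window (12.5%, all of them Mcm genes) and 0.585% of all genes, and TTTCCCGC for 3 of 24 (12.5%) and 1.24% of all. TTTGAA, the cell cycle homology region, was found for 11 of 24 (45.8%) and 20.2% of all genes. Of 20 mature neutrophil genes with a window, none held either E2F sequence and 10% held TTTGAA. Ribosomal, mitochondrial and cell cycle genes are expressed by any growing cell, and which cells in the CD71+ fraction carried them was not tested.

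Stress and survival genes had more falls than rises under TMM. The falls made 45%, 50% and 50% of the 3 lists below, in their order. That compares with 17.3% of all genes and 61.5% of those from 100 to 1000 CPM. Of 20 genes of amino acid stress and the unfolded protein response 9 fell and 4 rose: Ddit3, the factor CHOP, had 160.2 and 133 CPM in CD71- and 57.4 and 57.3 in CD71+ (log2 fold change -1.35 ± 0.18 SE, adjusted p = 0.000102) and Slc7a11, the cystine importer, 6063 and 6106 CPM in CD71- and 3259 and 3012 in CD71+ (-0.96), and Chac1, which breaks down glutathione, -1.39, whereas the serine synthesis genes Phgdh and Psat1 rose by 2.39 and 2.66 and the endoplasmic reticulum chaperone gene Pdia4 by 2.48. Among immediate early and heat shock genes 10 of 20 fell and 1 rose (3 fell without replicate 2 of CD71+). Jund, an AP-1 factor, fell by 1.14 and Hspe1, a mitochondrial chaperonin, rose by 1.65. Dusp1 had 5704 and 5597 CPM in CD71- and 3279.8 and 2566 in CD71+ and Egr1 3328 and 3108 CPM in CD71- and 2183 and 1799 in CD71+ (-0.95 and -0.69), and Fosb and Hspa1a did not pass (-0.29 and -0.34). Of 16 survival and death genes 8 fell and 1 rose (5 fell without replicate 1 of CD71+). Bcl2l1, which encodes Bcl-xL, had 944 and 945 CPM in CD71- and 457 and 376 in CD71+ (log2 fold change -1.18 ± 0.16 SE, adjusted p = 0.000121), Mcl1, on which neutrophil survival depends, 4797 and 4824 CPM in CD71- and 3053 and 2874 in CD71+ (-0.70), and Bcl2 rose from 6.99 and 7.08 CPM in CD71- to 20.5 and 19.3 in CD71+ (1.5). Fas, a death receptor, fell by 1.11. DESeq2 size factors gave 13, 13 and 8 falls in these 3 lists and 4, 1 and 1 rises. On total counts rises outnumbered falls in all 3. Amino acid stress and the unfolded protein response had 2 falls and 5 rises (25%). Immediate early and heat shock genes had no fall and 2 rises (10%), survival and death genes 2 falls and 3 rises (18.8%). These shares of rises lay below that of all genes (42.5%). With the mature neutrophil genes held level none fell and 9, 6 and 6 rose (45%, 30% and 37.5%, against 56.8% of all genes). Single libraries decided the call of Chac1 (-1.27 without CD71- replicate 1, -1.05 without CD71+ replicate 2), Jund (-0.76 without CD71- replicate 1, -0.91 without CD71+ replicate 2) and Egr1 (-0.57 without CD71+ replicate 2). Without single libraries the call was lost for Mcl1 (-0.67 without CD71+ replicate 2).

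**Figure D5:**
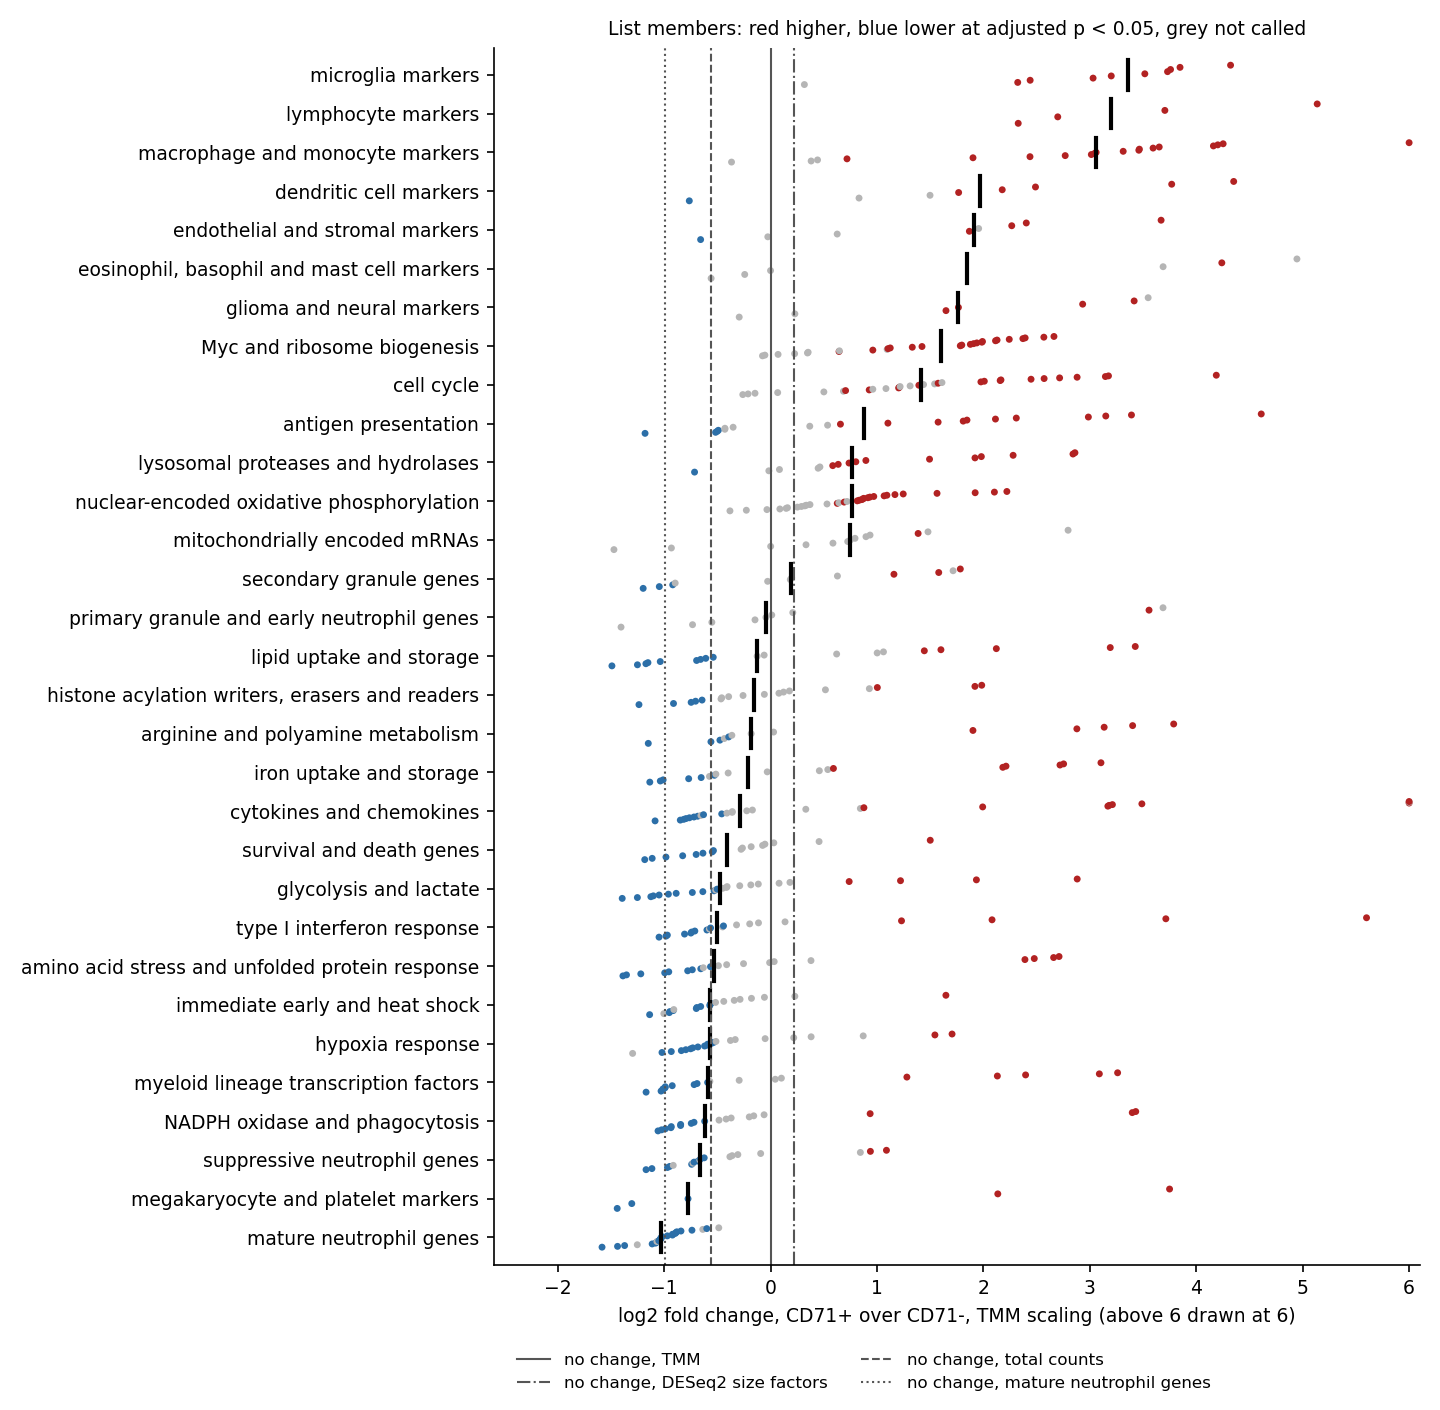
Log2 fold change (CD71+ over CD71-, TMM scaling) of each tested member of 31 gene lists, with the list median as a black bar, members called higher in red, lower in blue and not called in grey. Vertical lines mark where no change would lie under each scaling, from 0.219 with DESeq2 size factors to -0.996 with the mature neutrophil genes held level. The medians of the hypoxia and glycolysis lists lie between these lines (-0.57 and -0.48), and those of the microglia and macrophage markers to the right of all of them (3.36 and 3.06).

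Among genes with a mean of at least 20 CPM, the largest rises by fold change beside Mrc1 included the following. Mertk, which clears dying cells, had 9.37 and 9.71 CPM in CD71- and 109.9 and 232 in CD71+ (log2 fold change 4.16 ± 0.38 SE, adjusted p = 2.59e-05), with its replicates apart. Lag3, an inhibitory receptor, had 2.24 and 3.33 CPM in CD71- and 38.1 and 48.3 in CD71+ (3.95), Tnfrsf11a, the receptor RANK, 2.38 and 3.47 CPM in CD71- and 38.6 and 47.5 in CD71+ (3.88), and Spint1, a protease inhibitor, 2.38 and 2.36 CPM in CD71- and 35.1 and 41.5 in CD71+ (4.01). Frmd4b, Cd72, Plxdc2, Siglech, Nav3 and Adamts1 rose by 3.95, 3.91, 3.87, 3.85, 3.81 and 3.77. Mrc1 and Mertk are of the macrophage and monocyte list and Siglech is of the microglia list. The medians of these lists were 3.06 and 3.36 in the same libraries. The part of such cells in the rises of Lag3 and the other genes named here was not tested. In CPM the largest gains besides mt-Co1, Ctss, Csf1r, Apoe and Lyz2 were of Fn1, the matrix protein fibronectin (283 and 152 CPM in CD71- and 1938 and 1598 in CD71+), Eef1a1, the translation elongation factor (966 and 924 CPM in CD71- and 1915 and 2219 in CD71+), Ahnak (356 and 172 CPM in CD71- and 1262 and 1220.1 in CD71+), Lrp1 (441 and 239.8 CPM in CD71- and 1384 and 912 in CD71+) and the noncoding RNA Xist (1726 and 1486 CPM in CD71- and 2018 and 2582 in CD71+). Xist was not called with DESeq2 size factors (0.30). On leaving out a library, no call was made for Xist (0.51 without culture CD71+ replicate 1, 0.51 without culture CD71+ replicate 2, 0.48 without CD71- replicate 1, 0.30 without CD71- replicate 2, 0.32 without CD71+ replicate 2).

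The largest losses in CPM included those of Thbs1 and of the nuclear noncoding RNAs Neat1 and Malat1. Thbs1, the matrix protein thrombospondin 1, had 37790 and 32916 CPM in the CD71- libraries and 23706 and 19104 CPM in the CD71+ libraries (log2 fold change -0.72 ± 0.22 SE, adjusted p = 0.0162). Neat1 had 29159 and 33068 CPM in CD71- and 14507 and 12414 in CD71+ (-1.21) and Malat1 43105 and 39597 CPM in CD71- and 23701 and 23766 in CD71+ (-0.80). Hdc, which makes histamine, had 10682 and 9466 CPM in CD71- and 4534 and 3849.7 in CD71+ (-1.26), Acod1, which makes itaconate, 9570.5 and 9062 CPM in CD71- and 4817 and 4258 in CD71+ (-1.04) and Nlrp3, the inflammasome sensor, 12232 and 9238 CPM in CD71- and 5579 and 4803 in CD71+ (-1.05). Slfn4 and Lilr4b fell by 1.21 and 1.12. On total counts Thbs1, Malat1 and Lilr4b were no longer called (-0.16, -0.24 and -0.55), and none of the 10 largest losses was called lower with the mature neutrophil genes held level. Of 567 lincRNA genes tested 114 fell and 43 rose, with a median of -0.57, against 2215 falls and 3901 rises among 12369 protein-coding genes. The balance turned with the scaling, with 27 lincRNA genes lower and 75 higher on total counts (385 and 6293 of the protein-coding genes) and 5 lower and 104 higher with the mature neutrophil genes held level. Some fits with a library left out did not call Thbs1 (-0.59 without CD71+ replicate 2) and Malat1 (-0.80 without CD71+ replicate 1, -0.81 without CD71+ replicate 2).

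Some genes fell by more than the mature neutrophil genes did, and some were called lower under every scaling. Of the 2768 falls, 221 lay below the lowest fitted value of that list (-1.58). Being called lower under all 4 scalings is a separate criterion. Among the 41 genes that met it, 7 had a mean of at least 20 CPM. Besides Dgat1 these were Atg2a, a lipid transfer protein of autophagy, with 2621 and 1708 CPM in the CD71- libraries and 946 and 525 CPM in the CD71+ libraries (log2 fold change -1.56 ± 0.30 SE, adjusted p = 0.00185), Dop1b with 1404 and 999 CPM in CD71- and 477 and 359 in CD71+ (-1.52), Dennd3, a regulator of vesicle traffic, with 239 and 173 CPM in CD71- and 77.5 and 58.4 in CD71+ (-1.60), Nlrp12, an inhibitory NOD-like receptor, with 236 and 176 CPM in CD71- and 78 and 52.5 in CD71+ (-1.66), Sfn with 41.2 and 23.2 CPM in CD71- and 8.86 and 8.95 in CD71+ (-1.85) and Carns1, carnosine synthase, with 61.7 and 31.6 CPM in CD71- and 18.6 and 6.31 in CD71+ (-1.91). Under TMM, Dgat1, Atg2a and Dop1b lay within the range of the mature neutrophil genes. Dop1b, Nlrp12 and Carns1 overlap other annotated genes, as do Thbs1, Fn1, Cd72 and Eef1a1, and the sources used here do not say whether the counting used strand. The other genes with the largest falls above 20 CPM (Card10, Iqcn, Gm6296, Btnl2, Zbtb42, Gm43661, Gm48786 and Gm28192) fell by values on the log2 scale from 1.57 to 1.74, with Gm48786 at -1.65. Calls did not hold in every fit with a library left out for Carns1 (-1.5 without CD71- replicate 1), Gm28192 (-1.57 without culture CD71+ replicate 1, -1.57 without culture CD71+ replicate 2, -1.78 without CD71- replicate 1, -1.61 without CD71- replicate 2, -1.48 without CD71+ replicate 1, -1.67 without CD71+ replicate 2) and Card10 (-1.64 without CD71- replicate 1, -1.36 without CD71+ replicate 2). A library left out ended the call of Gm48786 (-1.65 without culture CD71+ replicate 1, -1.65 without culture CD71+ replicate 2, -1.70 without CD71- replicate 2, -1.65 without CD71+ replicate 1, -1.66 without CD71+ replicate 2).

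The same sort in culture gave another pattern for 5 of 13 genes tested for the difference, namely Tfrc and the 12 genes tied to the study's question. Over all genes, 2470 of 15975 (15.5%) passed this test of the tumour effect minus the culture effect. Arg1 rose by 0.84 in culture and by 3.40 in tumour, a difference of 2.56 ± 0.36 SE, adjusted p = 0.000883. Olr1 rose by 1.41 in culture, from 38.9 and 32.8 CPM in CD71- to 96.2 and 94.4 in CD71+, and fell in tumour, a difference of -2.15 ± 0.26 SE, adjusted p = 0.000395. Cd14, Cd274 and Slc2a1 did not pass in culture (0.54, 0.31 and -0.06) and fell in tumour, with differences of -1.48 ± 0.30 SE, adjusted p = 0.00615, -0.99 ± 0.27 SE, adjusted p = 0.0237 and -0.99 ± 0.29 SE, adjusted p = 0.0343. Tfrc had 131 and 94.4 CPM in CD71- and 116 and 115 in CD71+ in culture (0.03), and its difference missed the threshold (-0.68 ± 0.27 SE, adjusted p = 0.0948). Ly6g fell in culture by 1.81, and its difference also missed it (1.18 ± 0.39 SE, adjusted p = 0.0572). The calls of Cd274 and Slc2a1 were lost on total counts (-0.73 and -0.75). They were also lost without replicate 1 or 2 of culture CD71+ (-0.92 and -1.09 for Cd274, -0.94 and -1.09 for Slc2a1), replicate 1 of tumour CD71- (-1.0 and -0.98) or replicate 2 of tumour CD71+ (-0.92 and -0.75), and for Slc2a1 without replicate 2 of tumour CD71- (-1.24). Vegfa, Ldha, Hif1a, Ep300, Il1b and Tnfrsf10b had differences from -0.88 to 0.12 and did not pass.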

How the data were processed

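RNA-seq of 8 libraries was deposited as 1 table of raw read counts per gene (55450 genes, no normalization). Total RNA, per the labels' protocols, came from sorted or cultured cells and libraries were made with a stranded kit that removes ribosomal RNA. The submitters' processing notes name FastQC, cutadapt, STAR, featureCounts, DESeq2 and the mouse build mm10. Their versions, roles and strand setting are not given in the sources used here. Reads kept by the counting cannot be followed back, so genes that overlap or have near-identical copies may share them.

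From the deposited counts, 15975 genes with enough counts for the 4 groups (filterByExpr) were fitted over all 8 libraries with 4 group means in edgeR 4.0.16 (R 4.3.3), with TMM scaling and the robust quasi-likelihood test. The common biological coefficient of variation was 0.19 with 4 residual degrees of freedom. P-values were adjusted by Benjamini-Hochberg over all genes tested and called under 0.05. SE is the size of the log2 fold change over the square root of F. CPM use the TMM-scaled library sizes. The procedure was tested on simulated data. Alternatives were DESeq2 size factors, total counts and scaling on the mature neutrophil genes, no filter, a filter of 5 CPM in 2 libraries, the tumour libraries alone, DESeq2 1.42.0, a replicate block and each library left out. Library pairs of a group were compared by chi-square over genes, at 12.6 to 69.2 per degree of freedom, so none was a copy of another.

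Genes named are Tfrc and 12 genes tied to the study, the 12 largest rises and falls by fold change and the 10 by CPM, up to 2 each way per list, those called under all 4 scalings, and list members described with their list. A few genes that the rule names are not reported here. The members and the 32 lists were chosen with earlier results of these data known. Gene names are those of the table (GENCODE M21 annotation for overlaps). Promoters are from RefSeq, GRCm38.p6.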

Additional observations from a re-analysis of the deposited data

Results flagged for a closer look

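The CD71 effect differed between tumour and culture, by the interaction term of edgeR's quasi-likelihood fit with Benjamini-Hochberg adjustment over all genes, for 5 of the 13 genes tested. Arg1 had a difference of 2.56 on the log2 scale, tumour minus culture. For Olr1 it was -2.15, and for Cd14 -1.48. Cd274 and Slc2a1 each had -0.99, and both lost the call on total counts. Over all genes 15.5% passed the same test.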

How the results depend on the processing

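Counts of calls depended on the scaling and on single libraries. Higher in CD71+ were 6796 genes on total counts and 9080 with the mature neutrophil genes held level, against 4182 under TMM, and lower were 486 and 42, against 2768. With 1 library left out, 4495 to 7712 genes were called, 2278 to 4467 of them higher and 1924 to 3245 lower. DESeq2's Wald test called 3003 higher and 3486 lower, the fit without a filter 4376 and 2658, and the tumour libraries alone 3999 and 2999. With the replicate number as a block 4220 were higher and 3015 lower. Same-numbered tumour libraries deviated together (r = 0.224 over 9773 genes, 0.0703 in culture), but with 1 pair of deviations per system this shows only a shared number, and the pairing was not used. Sequencing depth limits genes under about 0.419 CPM, and 2 libraries a fraction limit the estimate of the spread.

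Over the genes described and the alternatives run, 3613 values kept direction and side of the threshold, 243 lost the call, 116 gained it and 117 turned the sign. Of the list medians 345 moved by less than the spread between replicates, 112 by more, and 38 changed sign or stood at 0.00. Under the block 2 genes described lost their call and 12 gained it. With DESeq2 size factors 4 lost their call and 15 gained it. The cause of these changes was not tested beyond the construction of each scaling. It adds a near constant to genes with more than a few counts in each fraction.

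With the mature neutrophil genes held level, the sign of the log2 fold change turned for Tfrc (0.35), Vegfa (0.38), Cd274 (0.31), Ldha (0.55), Hif1a (0.67), Ep300 (0.61), Il1b (0.23), Cd14 (0.04), Olr1 (0.24), Tnfrsf10b (0.33), Ly6g (0.39), Cxcl2 (0.18), Thbs1 (0.26) and Malat1 (0.20). Likewise for Itgax (0.21), Pecam1 (0.35), Itgb3 (0.22), Sat1 (0.45), Kdm3a (0.06), Osm (0.15), Oasl2 (0.02), Nlrc5 (0.49), Lamp2 (0.30), Dusp1 (0.04), Aldoa (0.80), Ccl3 (0.59), Ccl4 (0.83) and Cd68 (0.63). Also for Crebbp (0.35), Csf1 (0.20), Ddx58 (0.04), Egln3 (0.24), Egr1 (0.30), Eno1 (0.57), Fosb (0.70), Fosl2 (0.00), Fpr1 (0.17), Fth1 (0.48), Ftl1 (0.40), H2-D1 (0.51), H2-K1 (0.64) and Hdac1 (0.76). Further for Hk1 (0.24), Hk2 (0.45), Hspa1a (0.65), Il1a (0.65), Il1rn (0.31), Il23a (0.29), Mbp (0.69), Mcl1 (0.30), Mpo (0.49), Ncf1 (0.15), Odc1 (0.82), Pcna (0.85), Pfkfb3 (0.36) and Pfkl (0.01). In addition for Pfkp (0.11), Pgam1 (0.49), Pgk1 (0.88), Pkm (0.47), Plin2 (0.31), Ptgs2 (0.27), Rsad2 (0.26), S100a8 (0.42), S100a9 (0.51), Slc25a37 (0.24), Slc7a11 (0.04), Spi1 (0.30), Stat3 (0.00) and Steap4 (0.02). Then for Tapbp (0.48) and Tlr4 (0.07). On total counts, the sign of the log2 fold change turned for Ldha (0.11), Hif1a (0.23), Ep300 (0.16), Sat1 (0.01), Nlrc5 (0.06), Aldoa (0.37), Ccl3 (0.15), Ccl4 (0.39), Cd68 (0.20), Eno1 (0.14), Fosb (0.27), Fth1 (0.05), H2-D1 (0.07) and H2-K1 (0.21). Likewise for Hdac1 (0.31), Hk2 (0.04), Hspa1a (0.23), Il1a (0.20), Mbp (0.26), Mpo (0.03), Odc1 (0.39), Pcna (0.42), Pgam1 (0.06), Pgk1 (0.45), Pkm (0.04), S100a9 (0.07) and Tapbp (0.05). With DESeq2 size factors, the sign of the log2 fold change turned for Aars (-0.10), Gapdh (-0.04) and Hdac3 (-0.14). With DESeq2's Wald test, the sign of the log2 fold change turned for Aars (-0.08), Gapdh (-0.02) and Hdac3 (-0.12). In the fits that lack a library, the sign of the log2 fold change turned for Aars (-0.05 to 0.26), Aldoa (-0.43 to 0.01), Cxcl10 (-0.03 to 0.47), Gapdh (-0.03 to 0.35), Hdac3 (-0.15 to 0.26), Ltf (-0.22 to 1.15), Ly6c2 (-0.33 to 1.19), Mmp8 (-2.27 to 0.40), Mpo (-1.62 to 0.05) and P2ry13 (-0.08 to 0.50), over all libraries left out. With the mature neutrophil genes held level, the median of these lists changed sign: primary granule and early neutrophil genes (0.94), megakaryocyte and platelet markers (0.22), iron uptake and storage (0.79), arginine and polyamine metabolism (0.82), glycolysis and lactate (0.52), hypoxia response (0.44), histone acylation writers, erasers and readers (0.84), suppressive neutrophil genes (0.33), cytokines and chemokines (0.71), type I interferon response (0.50), lipid uptake and storage (0.89), NADPH oxidase and phagocytosis (0.39), stress of amino acids and protein folding (0.48) and early response and heat shock (0.42). Likewise for myeloid lineage transcription factors (0.40) and survival and death genes (0.58). On total counts, the median of these lists changed sign: primary granule and early neutrophil genes (0.50), iron uptake and storage (0.35), arginine and polyamine metabolism (0.39), glycolysis and lactate (0.08), histone acylation writers, erasers and readers (0.41), cytokines and chemokines (0.27), type I interferon response (0.05), lipid uptake and storage (0.44), stress of amino acids and protein folding (0.03) and survival and death genes (0.16). With DESeq2 size factors, the median of these lists changed sign: secondary granule genes (-0.03). With DESeq2's Wald test, the median of these lists changed sign: secondary granule genes (-0.01). That of the eosinophil, basophil and mast cell markers stood at 0.00. Without the filter on low counts, the median of these lists changed sign: megakaryocyte and platelet markers (2.45). With the stricter filter, the median of these lists changed sign: eosinophil, basophil and mast cell markers (-0.11). Fitted on the tumour libraries alone, the median of these lists changed sign: eosinophil, basophil and mast cell markers (-0.24). With the replicate block, the median of these lists changed sign: primary granule and early neutrophil genes (0.03). Over all libraries left out, the median changed sign for primary granule and early neutrophil genes (-0.43 to 0.26) and for secondary granule genes (-0.27 to 0.47). For eosinophil, basophil and mast cell markers it ran from 0.00 to 3.79. On total counts, the sign of the tumour minus culture difference turned for Ldha (0.05) and Il1b (0.04). With DESeq2 size factors, the sign of the tumour minus culture difference turned for Vegfa (-0.08) and Ep300 (-0.05). With DESeq2's Wald test, the sign of the tumour minus culture difference turned for Vegfa (-0.07) and Ep300 (-0.04). In the fits that lack a library of either system, the sign of the tumour minus culture difference turned for Vegfa (-0.27 to 0.27), Ldha (-0.43 to 0.02) and Ep300 (-0.19 to 0.25), over all libraries left out.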

Other observations

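The 2 CD71+ tumour libraries differed from each other in genes of other cells. Ptprz1, of glial precursors, had 276 counts in replicate 1 and 31 in replicate 2, and the collagen gene Col1a2 396 and 137. Cd8a, of T cells, went the other way with 5 and 72. Of 79 small nucleolar RNAs tested, 7 fell and 4 rose, with a median of -0.46, but 3 fell and 8 rose on total counts (median 0.10) and 2 fell and 16 rose with the mature neutrophil genes held level. Of 35 clustered histone genes tested 4 rose and 2 fell, against 2 and 5 with DESeq2 size factors and 7 and 1 on total counts.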
